A study of Homo sapiens with 44 samples.

Results

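The genes described here are 40 of the 19923 protein-coding genes in the deposited count files, chosen by symbol as core components of DNA replication and of the deoxynucleotide supply. They comprise 6 genes of origin loading and activation (ORC1, ORC6, CDC6, CDT1, MCM10 and CDC45), the 6 genes of the MCM helicase (MCM2 to MCM7) and 4 GINS genes. They also comprise 4 genes of polymerase alpha and primase, 5 of polymerases delta and epsilon, 6 of the sliding clamp and its loader, 3 of the single-strand binding protein RPA, 2 of flap removal and ligation (FEN1 and LIG1) and 4 of deoxynucleotide supply. All 40 were found, and all 40 passed the filter on low counts in every comparison.

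The study measured m6A by immunoprecipitating fragmented poly(A) RNA with an m6A antibody (RIP) and sequencing it beside the unprecipitated RNA (input), after treatment with STM2457, an inhibitor of the m6A methyltransferase METTL3. Kelly and NGP, both MYCN-amplified neuroblastoma cell lines labelled wild type, were given 8 µM STM2457 or DMSO in culture. Harvests were at 1 day and at 6 days for Kelly and at 6 days for NGP, with 3 input and 3 RIP libraries for each treatment. Subcutaneous Kelly tumours in nude mice, which lack T cells, were harvested after intraperitoneal STM2457 at 50 mg/kg or vehicle, given daily for 14 days, with 2 input and 2 RIP libraries per treatment. The labels call the vehicle libraries DMSO, give no age for the mice and tie no library to an animal. They do not say that replicates are separate cultures or tumours, so the p-values below measure the spread between these libraries, which may be technical.

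DNA replication starts at origins bound by the origin recognition complex, which with CDC6 and CDT1 loads the MCM helicase onto DNA. CDC45 and GINS join MCM to form the active helicase, primase and polymerase alpha lay down primers, polymerases epsilon and delta extend them with the PCNA clamp loaded by RFC, RPA coats single-stranded DNA, and FEN1 and LIG1 process and join Okazaki fragments. m6A is placed in mRNA by the METTL3-METTL14 complex, mostly at sites with the core sequence GGACT or close variants, and lies mainly near stop codons and in long internal exons.

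Counted fragments per library, in units of 1000000, ranged from 24.06 to 36.5 for Kelly at 1 day, from 5.76 to 31.49 for Kelly at 6 days, from 5.49 to 24.07 for NGP and from 2.14 to 11.84 for the xenograft. The spread between input libraries of a group, as the biological coefficient of variation, was 0.0725, 0.0913, 0.240 and 0.448 in that order, so the tests are least precise in the xenograft. The 10 neuroblastoma markers examined had counts in every group. Of 16 markers of host stroma, vessels and blood, 6 were at 0 in every vehicle input library of the xenograft (COL1A2, DCN, LUM, PECAM1, PTPRC and HBB). With STM2457, 9 were at 0. The summed level of the 16 was 1454 to 1481 counts per 1000000 (CPM, for sums per library total) with vehicle and 1261 to 1339 CPM with STM2457. The same sum with DMSO in culture was 3646 to 4327 CPM in Kelly cells at 1 day, 1213 to 1246 CPM at 6 days and 679 to 818 CPM in NGP cells. Counting was to human genes.

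The sense strand of the coding sequence was searched for GGACT in the canonical GENCODE 44 transcript on GRCh38. At least 1 match was present in the coding part of 34 of the 40 genes and of 75.3% of the 13352 genes with a canonical transcript. Windows of 25 bases are shown for FEN1, GINS3 and POLD1, with GGACT in capitals. POLD1 lies far below the others in RIP over input. FEN1 and GINS3 had the highest ratios of the 40 genes on average over the 4 experiments. POLD1, the catalytic subunit of polymerase delta, had more coding matches than either, and a low ratio in Kelly cells at 1 day (log2 -3.32) and NGP cells (-1.93), against -1.57 and -1.49 in Kelly cells at 6 days and the xenograft. The whole FEN1 coding sequence of 1140 bases lies in 1 exon with 1 match, 0.877 per kb.
FEN1 (chr11:61795891-61795915, plus strand, coding exon 1): ccgaggacatGGACTgcctcacctt
GINS3 (chr16:58403124-58403148, plus strand, coding exon 2): gctggcaaaaGGACTttttgacaac
GINS3 (chr16:58403191-58403215, plus strand, coding exon 2): gagggttggaGGACTgtgttcagtg
GINS3 (chr16:58404518-58404542, plus strand, coding exon 3): gccgcatcatGGACTcctcacagaa
GINS3 (chr16:58404612-58404636, plus strand, coding exon 3): agggcagaaaGGACTgaatgacttt
POLD1 (chr19:50406225-50406249, plus strand, coding exon 10): ccaacatccgGGACTcttcattcca
POLD1 (chr19:50408802-50408826, plus strand, coding exon 14): tcgccaccctGGACTtctcctcgct
POLD1 (chr19:50414888-50414912, plus strand, coding exon 19): acgaccgcatGGACTgcaagggcct
The 4 GINS3 matches lie in 648 coding bases, 6.17 per kb, in coding exons 2 and 3 of 3. The 7 POLD1 matches, of which 3 are shown, lie in coding exons 10, 13, 14, 18, 19 and 26 of 26. They amount to 2.11 per kb, against 1.11 per kb over the coding bases of all genes. RPA2, RFC4, POLE2 and ORC6 had no GGACT in the canonical transcript, and 91.6% of all genes had at least 1. A match is a sequence and not a mapped m6A site, and other variants of the consensus were not counted.

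Length-normalised input levels in the DMSO libraries (fragments per kilobase of counted exon per 1000000, FPKM) spanned a wide range within the pathway. In Kelly cells at 1 day, MCM2 was highest at 209 FPKM, followed by MCM3 at 191 and PCNA at 184, and PRIM2, the large primase subunit, was lowest at 4.23. The primase and polymerase alpha genes lay at the low end, with POLA1 at 11.9, PRIM1 at 7.75 and POLA2 at 5.46 FPKM. In NGP cells PCNA was highest at 221 FPKM and MCM7 followed at 157. Neighbours in the order of levels differed by more than their SD in 20 of 39 neighbouring pairs for Kelly at 1 day, 22 for Kelly at 6 days, and 6 each for NGP and the xenograft.

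After 1 day of STM2457, 11 of the 40 replication transcripts fell slightly in the input of Kelly cells, and FEN1, GINS3 and GINS2 rose (quasi-likelihood test of edgeR, adjusted p under 0.05 by Benjamini-Hochberg over 13246 genes), where 17.5% of all genes were called, 8.06% lower and 9.41% higher. The median log2 change of the 40 genes was -0.10, against 0.01 for all genes, and 33 of the 40 had a negative estimate (82.5%, against 48.6% of all genes). Per library total, the sum of the 40 genes was 8113 to 8236 CPM in the DMSO libraries and 7842 to 7971 CPM in the STM2457 libraries, with no overlap. In bulk RNA, fewer cells in S phase and less RNA per cell cannot be told apart. The count rested on each STM2457 library: it was 7 without STM2457 input replicate 2 and 9 without replicate 1 or replicate 3. It was 1, FEN1, when all 22 input libraries shared 1 estimate of the spread.

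After 6 days in Kelly cells, 5 of the 40 genes were called, FEN1 and MCM4 higher and RPA3, RFC4 and CDC45 lower, where 26.6% of all 12773 genes were called, 11.9% higher and 14.7% lower. The share of the 40 genes was 12.5%, below that background, and their median log2 change was -0.0024. Per library total, the sum of the 40 genes was 5421 to 5435 CPM with DMSO and 5672 to 5919 CPM with STM2457. The library scaling factors of the tests (TMM), which this sum leaves out, were 0.956 to 0.971 with DMSO and 1.02 to 1.05 with STM2457. Scaling by them would lower the treated sums relative to the controls, so no rise is read from the sum. In NGP cells at 6 days 3 genes were called, FEN1 and MCM5 higher and RPA3 lower, against 4.23% of 12289 genes, 2.07% higher and 2.16% lower. The NGP count was 1 without DMSO input replicate 1 or without DMSO input replicate 3, and 0 without STM2457 input replicate 1. Over the 3 culture experiments, 16 of the 40 genes were called in at least 1, 4 in at least 2 and 2, FEN1 and RPA3, in all 3, and 24 were called in none. Of the 11596 genes tested in all 3, 37.7% were called in at least 1, 11.6% in at least 2, 1.37% in all 3 and 62.3% in none.

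**Figure D1:**
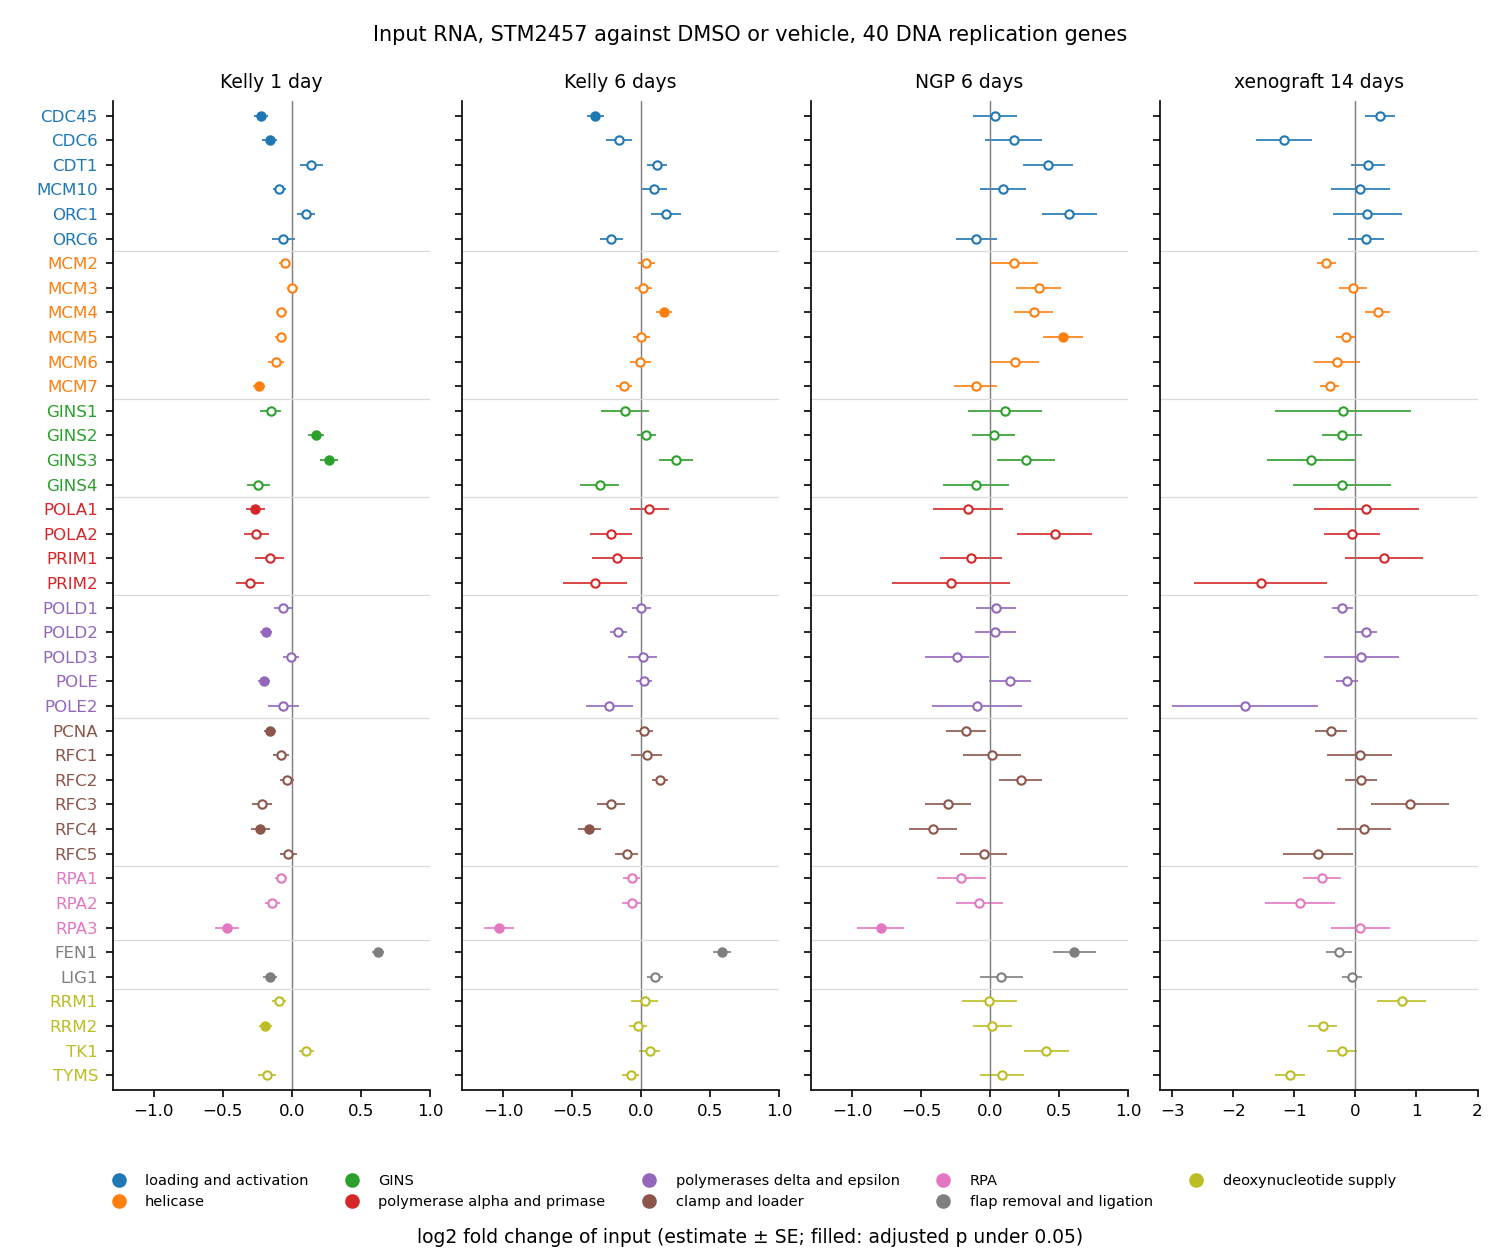
Log2 change of input RNA with STM2457 against DMSO or vehicle (x axis, estimate ± SE) for each of the 40 genes (y axis, coloured by role) in the 4 experiments; filled points have an edgeR adjusted p under 0.05, and the xenograft axis is wider. FEN1 stands at 0.59 to 0.62 and RPA3 at -1.03 to -0.47 in the 3 culture experiments, and no point is filled in the xenograft.

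FEN1, the nuclease that removes the displaced 5′ flap of each Okazaki fragment, was the member with the largest rise in each culture experiment. In Kelly cells at 1 day its input level was 239, 250 and 246 CPM with DMSO and 383, 371 and 375 CPM with STM2457. At 6 days it was 141, 139 and 150 CPM with DMSO and 207, 225 and 212 CPM with STM2457. Every treated Kelly library lay above every control, by a log2 change of 0.62 at 1 day (SE 0.0432, edgeR adjusted p = 1.72e-07) and 0.59 at 6 days (SE 0.0626, edgeR adjusted p = 4.51e-06). In NGP cells it was 84.9, 91.98 and 78.1 CPM with DMSO and 133, 126 and 129 CPM with STM2457, again without overlap (log2 change 0.61, SE 0.155, edgeR adjusted p = 0.0248). The NGP call was lost without DMSO input replicate 1 (0.61), DMSO input replicate 3 (0.55) or STM2457 input replicate 1 (0.59). In Kelly cells 98.0% of all genes had a lower log2 change than FEN1 at 1 day and 95.5% at 6 days. In the xenograft the values were 132 and 135.2 CPM with vehicle and 116 and 106 CPM with STM2457, with a log2 change of -0.27 (SE 0.212) that did not pass (edgeR adjusted p = 0.781). FEN1 lies at chr11:61792911-61797238 on the plus strand, and 2.23% of its counted exon bases are shared with FADS2 on the same strand.

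RPA3, the smallest subunit of the RPA trimer, was the member with the largest fall in each culture experiment. With DMSO its input level was 37.1, 37.9 and 38.8 CPM in Kelly cells at 1 day, against 24.2, 28.2 and 29.7 CPM with STM2457. At 6 days it was 62.4, 54.1 and 66.7 CPM with DMSO and 32.97, 30.3 and 24.1 CPM with STM2457. In NGP cells it was 82.0, 104 and 83.5 CPM with DMSO and 49.9, 48.1 and 56.5 CPM with STM2457. The groups did not overlap in any of the 3 experiments. The log2 change was -0.47 at 1 day (SE 0.0879, edgeR adjusted p = 0.00127), -1.03 at 6 days in Kelly cells (SE 0.108, edgeR adjusted p = 3.8e-06) and -0.79 in NGP cells (SE 0.173, edgeR adjusted p = 0.00839). The NGP call was lost without STM2457 input replicate 1 (-0.77). The 1 day call was lost when all 22 input libraries shared 1 estimate of the spread. The xenograft libraries overlapped, at 22.8 and 23.9 CPM with vehicle and 21.5 and 28.1 CPM with STM2457. The other subunits did not pass in any experiment: RPA1 had log2 changes of -0.08, -0.07, -0.21 and -0.55 and RPA2 of -0.14, -0.07, -0.08 and -0.91 in the order Kelly 1 day, Kelly 6 days, NGP and xenograft. RPA3 lies at chr7:7636518-7718607 on the minus strand, and 3.65% of its counted exon bases overlap UMAD1 on the opposite strand, which counting without strand cannot separate.

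Among the loading factors, CDC45, which joins MCM and GINS in the active helicase, fell in both Kelly experiments. Its input level was 190, 188 and 179 CPM with DMSO and 162, 151 and 163 CPM with STM2457 at 1 day, and 211, 230 and 222 CPM with DMSO and 171, 182 and 173 CPM with STM2457 at 6 days. The groups did not overlap at either time (log2 change -0.22, SE 0.0503, edgeR adjusted p = 0.00491 at 1 day; -0.33, SE 0.0612, edgeR adjusted p = 0.000733 at 6 days). In NGP cells CDC45 was 148, 131 and 134.5 CPM with DMSO and 157, 112 and 154 CPM with STM2457, with overlap. CDC6 was the other loading factor called, at 1 day only (log2 change -0.16). That call was lost without DMSO input replicate 1 (-0.15) or 2 (-0.16) or STM2457 input replicate 2 (-0.13) or 3 (-0.15). ORC1, ORC6, CDT1 and MCM10 were not called in any experiment.

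**Figure D2:**
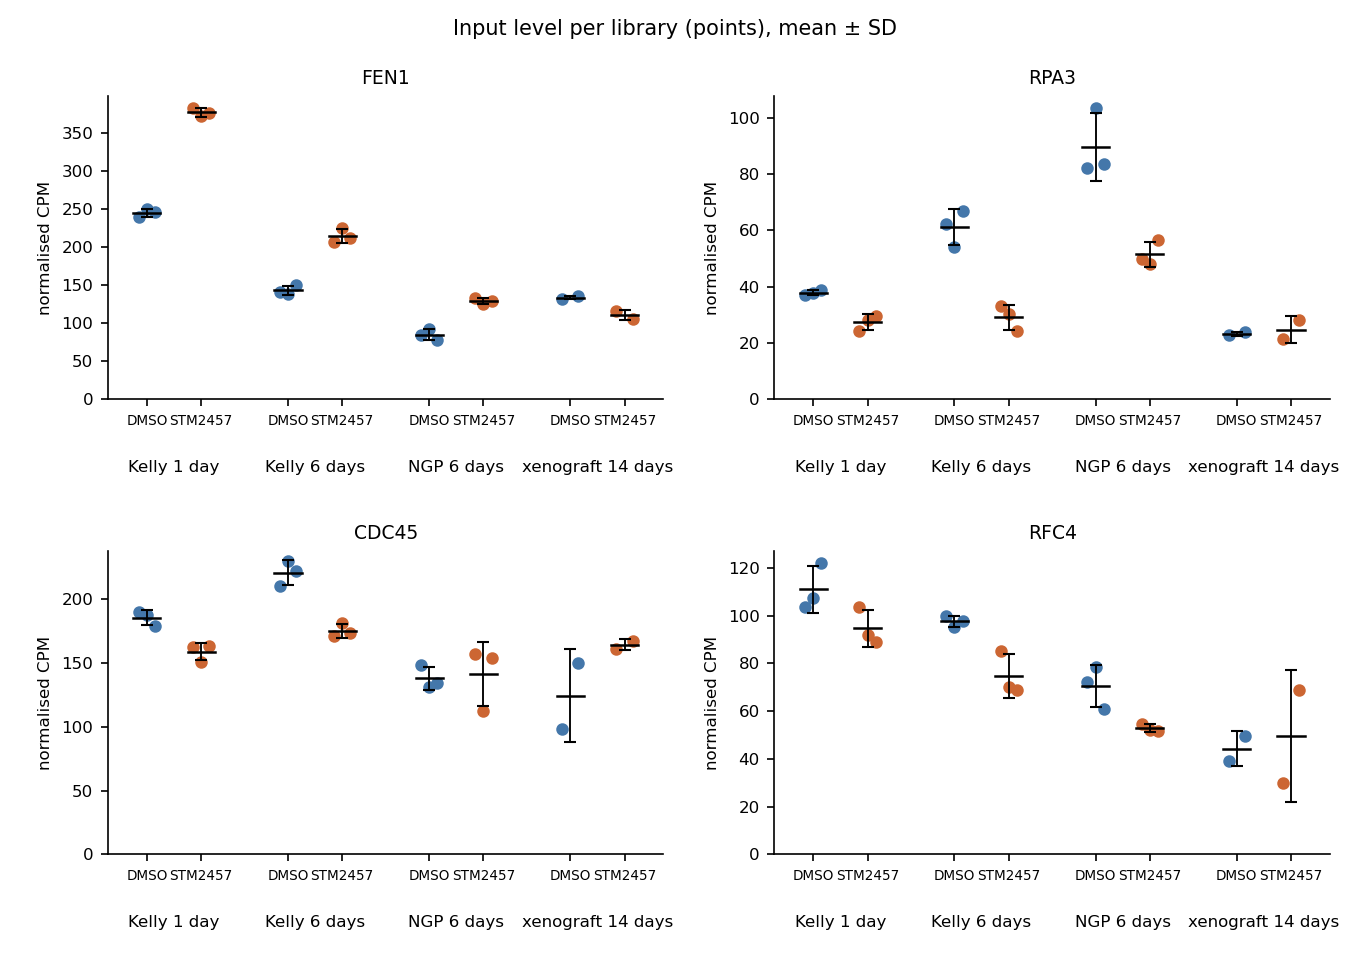
Input level of FEN1, RPA3, CDC45 and RFC4 in each library (y axis, normalised CPM; blue DMSO or vehicle, orange STM2457; bars are mean ± SD) in the 4 experiments on the x axis. Treated and control libraries do not overlap for FEN1 and RPA3 in the 3 culture experiments and for CDC45 in both Kelly experiments.

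RFC4, a subunit of the clamp loader, fell in both Kelly experiments. It was 103.8, 107 and 122 CPM with DMSO and 103.5, 91.7 and 88.8 CPM with STM2457 at 1 day, where the highest treated library lay just below the lowest control (log2 change -0.23, SE 0.0695, edgeR adjusted p = 0.0286). It was 100.1, 95.1 and 97.6 CPM with DMSO and 85.3, 70.1 and 68.8 CPM with STM2457 at 6 days (log2 change -0.37, SE 0.0815, edgeR adjusted p = 0.00271). The 1 day call was lost without DMSO input replicate 3 (-0.16), STM2457 input replicate 2 (-0.21) or STM2457 input replicate 3 (-0.19). PCNA, the clamp itself, fell slightly at 1 day, from 254, 265 and 256 CPM to 235, 229 and 230 CPM (log2 change -0.16, SE 0.0445, edgeR adjusted p = 0.0204), and was 0.02 at 6 days. The PCNA call was lost without any 1 of the 3 STM2457 input libraries (-0.17 to -0.15). RFC1, RFC2, RFC3 and RFC5 did not pass in any experiment.

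In the MCM helicase, MCM7 fell at 1 day from 486, 474 and 481 CPM to 408, 387 and 424 CPM, without overlap (log2 change -0.24, SE 0.044, edgeR adjusted p = 0.00109). At 6 days MCM4 rose in Kelly cells from 184, 176 and 183 CPM to 199, 204 and 207 CPM (log2 change 0.16, SE 0.0584, edgeR adjusted p = 0.0472). MCM5 rose in NGP cells from 193, 176 and 197 CPM to 290, 247 and 277 CPM (log2 change 0.53, SE 0.145, edgeR adjusted p = 0.0385). Treated and control libraries did not overlap in any of these 3 sets. The MCM4 call was lost without any of the DMSO input replicates (0.15 to 0.18) or STM2457 input replicate 2 (0.16), and the MCM5 call in 5 of 6 omissions, all but STM2457 input replicate 2 (0.47 to 0.56). MCM2, MCM3 and MCM6 did not pass in any experiment, with log2 changes from -0.48 to 0.35.

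In GINS, which bridges CDC45 and MCM, GINS3 rose at 1 day from 48.5, 47.0 and 45.2 CPM to 55.9, 57.7 and 56.0 CPM (log2 change 0.27, SE 0.0669, edgeR adjusted p = 0.00943). Its estimates at 6 days, 0.25 in Kelly and 0.26 in NGP cells, were alike in size but did not pass. The GINS3 call was lost without STM2457 input replicate 2 (0.26). GINS2 rose at 1 day by 0.17 (SE 0.0581, edgeR adjusted p = 0.0465), a call lost without DMSO input replicate 3 (0.11) or STM2457 input replicate 1 (0.19), 2 (0.18) or 3 (0.15). GINS1 and GINS4 did not pass. Among the polymerases, POLA1 (log2 change -0.26), POLE (-0.20) and POLD2 (-0.19) fell at 1 day. The POLA1 call was lost without STM2457 input replicate 2 (-0.26) or 3 (-0.24), and the POLD2 call without STM2457 input replicate 1 (-0.18). PRIM1, PRIM2, POLA2, POLD1, POLD3 and POLE2 were not called in any experiment. LIG1, the ligase that seals Okazaki fragments, fell at 1 day from 260, 267 and 238 CPM to 228, 221 and 234 CPM (log2 change -0.16, SE 0.0508, edgeR adjusted p = 0.0364), so FEN1 and LIG1 were called in opposite directions in the same libraries. The LIG1 call was lost in 5 of 6 omissions of 1 library, all but DMSO input replicate 3. RRM2, the regulated subunit of ribonucleotide reductase, fell at 1 day (log2 change -0.19; -0.18 and no longer called without STM2457 input replicate 1), and RRM1, TK1 and TYMS did not pass. TYMS, POLA2 and PRIM1 share 39.94%, 36.14% and 22.17% of their counted exon bases with other genes, so their counts are less certain.

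In the xenograft edgeR called 0 of the 40 genes and 0% of 11329 genes. Of the 40 genes, 4 had an unadjusted p under 0.05, all lower with STM2457 (TYMS, MCM2, MCM7 and CDC6), and 968 of all genes did. DESeq2 called 1 of the 40, TYMS, at a log2 change of -1.06, where it called 125 of 14636 genes. TYMS, thymidylate synthase, was 171 and 134.7 CPM with vehicle and 66.1 and 79.9 CPM with STM2457, without overlap. The largest rise and the largest fall belonged to genes with few counts, RFC3 and POLE2. RFC3 was 11.3 and 19.8 CPM with vehicle and 43.3 and 14.3 CPM with STM2457, with overlap (log2 change 0.89, SE 0.64). POLE2 had 33 and 64 counts with vehicle and 9 and 3 counts with STM2457 (log2 change -1.81, SE 1.2). Whether changes under 2-fold could be detected with 2 libraries a group and this spread was not tested. All input changes of the 40 genes called in culture were of that size, apart from RPA3 in Kelly cells at 6 days. Per library total, the sum of the 40 genes was 4261 and 4401 CPM with vehicle and 3653 and 3564 CPM with STM2457, without overlap. This sum leaves out the TMM factors, which were higher in both vehicle libraries than in either STM2457 library. Scaling by them would bring the groups closer, so the size of the fall is not read from the sum. The edgeR count was 2 without STM2457 input replicate 1 or without STM2457 input replicate 2, where the remaining library was taken to vary like the vehicle group, and 12 when all 22 input libraries shared 1 estimate of the spread.

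The change with STM2457 differed between 1 and 6 days in Kelly cells for 4 of the 40 genes (edgeR interaction test), where 8.41% of 13773 genes differed, 3.67% higher and 4.73% lower at 6 days. RPA3 fell further at 6 days (difference -0.54, SE 0.144, edgeR adjusted p = 0.0199). MCM4 (0.26), POLE (0.24) and LIG1 (0.28) had a less negative or a positive change at 6 days. The count was 0 without STM2457 input replicate 2 of the 1 day set, 1 without STM2457 input replicate 1, 2 without DMSO input replicate 1 or replicate 2 of that set, and 7 without STM2457 input replicate 3 of the 6 day set. FEN1 did not differ between the times (difference -0.02, SE 0.0748). Between Kelly and NGP cells at 6 days edgeR called 0 of the 40 genes, and 1 had an unadjusted p under 0.05 (MCM5, -0.50, SE 0.137). DESeq2 called that same gene, where it called 423 of 17010 genes. By edgeR 1.36% of 13448 genes differed, 0.565% higher and 0.796% lower in Kelly cells. The edgeR count was 1 without STM2457 input replicate 2 of the NGP set. The difference for FEN1 was -0.0014 (SE 0.134) and for RPA3 -0.23 (SE 0.1995). Input libraries of these experiments are recorded in separate folders, so time or cell line cannot be told apart from the folder.

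Related genes were described beside them from lists chosen with earlier results known. Of 36 other replication factors, 5 were called in Kelly cells at 1 day, 3 of them higher, where 17.5% of all genes were, and 5 at 6 days, 2 of them higher, where 26.6% of all genes were. In the xenograft, where 34 were tested, and in NGP cells edgeR called 0. POLE4, a small subunit of polymerase epsilon, was called in both Kelly experiments (log2 change -0.35, SE 0.101 and -0.68, SE 0.108). Of 22 S phase regulators, CDKN1A, which encodes the CDK inhibitor p21, was the one called in more than 1 culture experiment, lower in all 3 (log2 change -0.81, -1.38 and -1.74). Of 22 mitotic genes, 6 fell and 0 rose in Kelly cells at 1 day, where 8.06% of all genes fell and 9.41% rose, and 10 fell and 1 rose at 6 days, where 14.7% fell and 11.9% rose. CDC20, an activator of the anaphase-promoting complex, had log2 changes of -0.53 and -0.46, AURKB -0.33 and -0.48, CCNB1 -0.18 and -0.31, and BUB1B -0.16 and -0.39. The median log2 change of the mitotic list was -0.14, -0.26, -0.28 and -0.19 in the 4 experiments, against -0.10, -0.0024, 0.04 and -0.15 for the 40 replication genes. No mitotic gene was called by edgeR in NGP cells or the xenograft.

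RIP over input in the DMSO libraries measures how far a transcript is over-represented in the m6A immunoprecipitate relative to the average gene of the same libraries. Replication transcripts were mostly under-represented, and FEN1 and GINS3 were over-represented in all 3 culture experiments. The median log2 ratio of the 40 genes was -1.43 for Kelly at 1 day, -2.06 for Kelly at 6 days, -0.43 for NGP and -1.19 for the xenograft, against -0.07, -0.10, 0.08 and -0.16 for all genes. When libraries were instead scaled on the 13 mitochondrially encoded mRNAs, all ratios shifted upward (all-gene median by 1.64, 4.88, 0.71 and 2.18) and the median of the 40 genes turned positive in all 4 experiments (0.20, 2.99, 0.21 and 0.98). Such scaling sets 1 factor per library and so shifts all genes nearly alike. The distance of the 40 genes below the all-gene median could therefore hardly change, and its likeness is no check of the depletion. It was -1.36 and -1.37 for Kelly at 1 day and -1.95 and -1.78 at 6 days. For NGP it was -0.51 and -0.59, and for the xenograft -1.03 and -1.04. Because the sign depends on the scaling, statements of depletion below are relative to other genes. The Kelly 1 day input and RIP libraries are recorded in separate folders in the file headers, so a difference between those folders and RIP over input cannot be told apart there. Each other experiment lies in 1 folder of its own, so differences between experiments cannot be told apart from differences between folders.

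In Kelly cells at 1 day 24 of the 40 genes were depleted at least 2-fold and 4 were enriched (edgeR adjusted p under 0.05), where 55.5% of 13669 genes were called, 29.1% depleted and 26.3% enriched, and with mitochondrial scaling 7 of the 24 changed sign. At 6 days 28 were depleted and 2 enriched, where 53.1% of 13324 genes were called, 27.3% depleted and 25.8% enriched, and with mitochondrial scaling 27 of the 28 changed sign. In NGP cells 11 were depleted and 4 enriched, where 40% of 13088 genes were called, 19% depleted and 20.9% enriched, and with mitochondrial scaling no called gene changed sign. In the xenograft 2 were depleted (MCM4 and TYMS) and 1 enriched (FEN1), where 3.75% of 12626 genes were called, 2.15% depleted and 1.61% enriched, and with mitochondrial scaling none of the 3 was called. The xenograft count was 0 without either vehicle input library, either STM2457 input library or vehicle RIP replicate 2, 1 without vehicle RIP replicate 1, and 8 without either STM2457 RIP library. Depletion was called in all 3 culture experiments for 7 genes, CDT1, MCM5, MCM7, POLD1, POLD2, POLE and TYMS, and with mitochondrial scaling all 7 changed sign in Kelly cells at 6 days and CDT1, MCM5 and POLE also at 1 day. That is 17.5% of the 40 genes, against 10.8% of the 12218 genes tested in all 3; enrichment in all 3 was called for 5.0% of the 40 genes and 11.3% of those genes. The MCM5 value at 6 days fell short of 2-fold without DMSO RIP replicate 3 (-0.92).

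**Figure D3:**
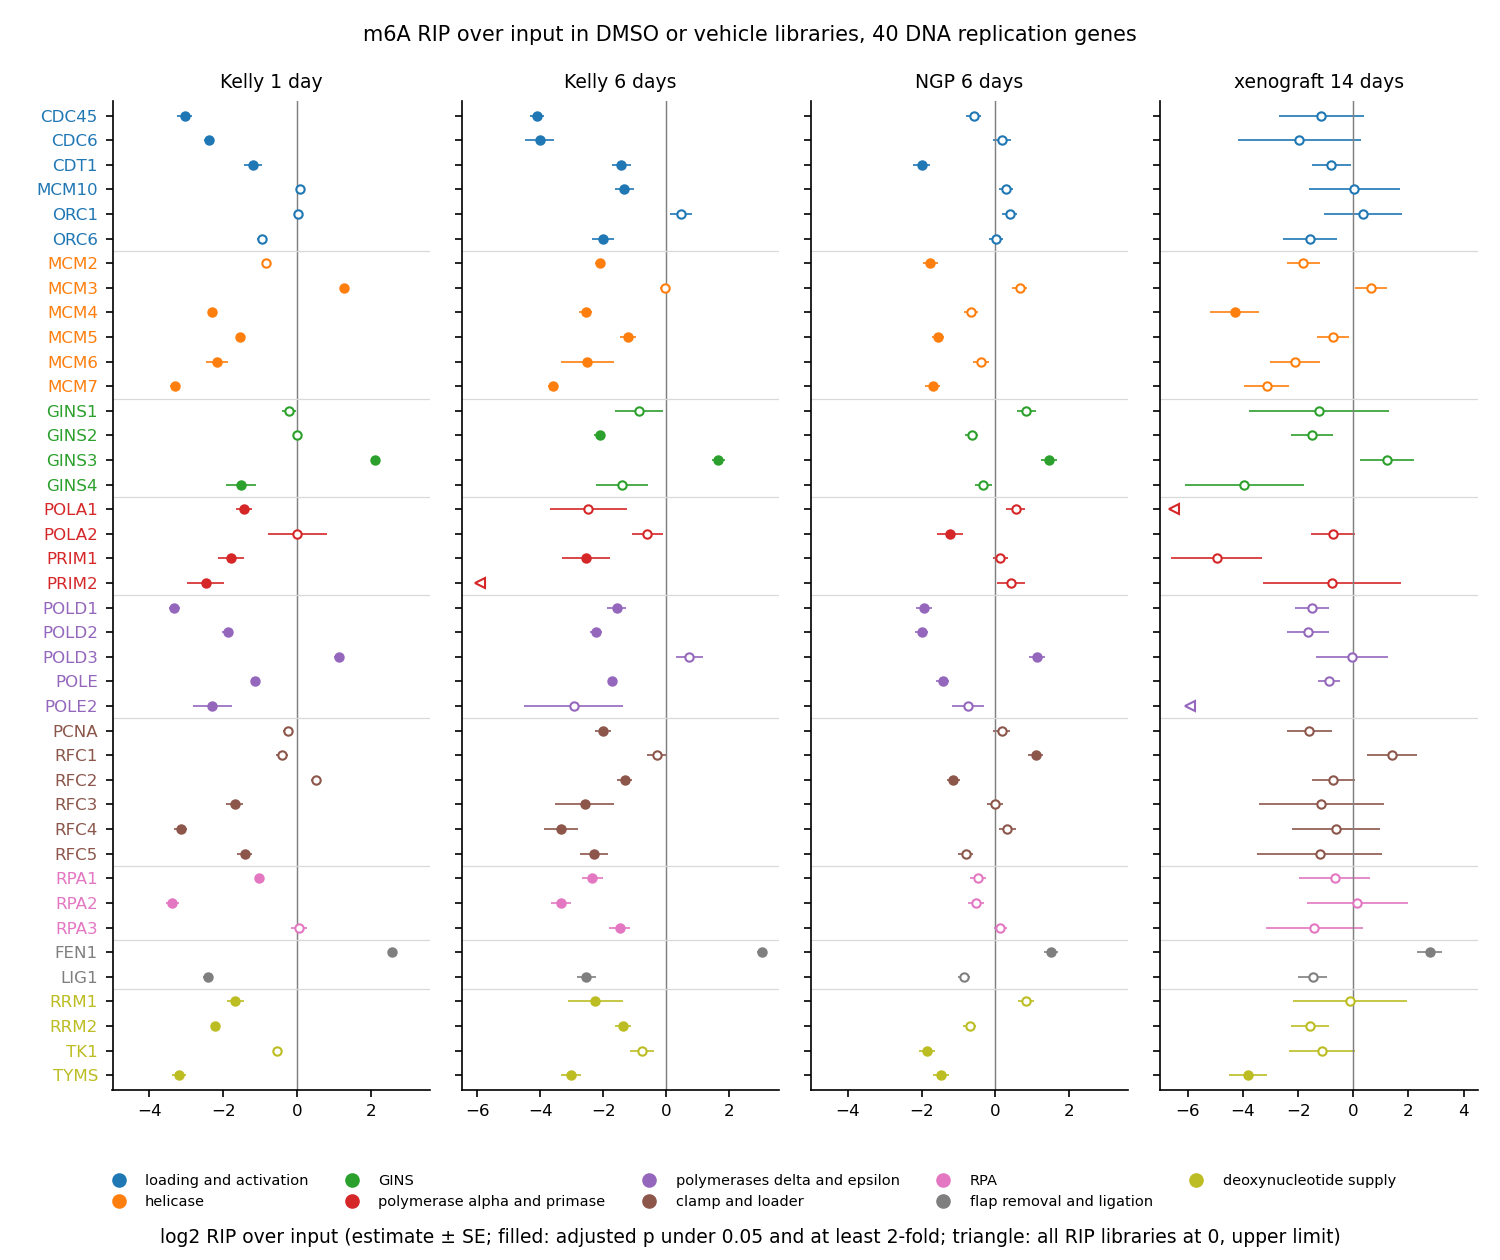
Log2 RIP over input in DMSO or vehicle libraries (x axis, estimate ± SE, relative to the average gene) for each of the 40 genes (y axis, coloured by role) in the 4 experiments; filled points are called at 2-fold or more, and triangles are upper limits where every RIP library had 0 counts. Most points lie left of 0 and FEN1 lies right of 0 in every panel; with scaling on mitochondrial mRNAs the ratios shift right by 1.64, 4.88, 0.71 and 2.18 and 27 of the 28 depleted calls in Kelly cells at 6 days change sign.

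FEN1 had the highest ratio of the 40 genes on average. Mitochondrial scaling raises every ratio, so a positive one could not turn. The RIP level of FEN1 divided by its mean input level was 6.02, 5.97 and 5.90 in the Kelly 1 day DMSO libraries and 9.34, 7.48 and 7.87 at 6 days. It was 3.12, 2.84 and 2.53 for NGP and 6.59 and 7.05 for the xenograft. All 11 libraries thus held more FEN1 in the RIP than in the input (log2 ratio 2.58, 3.04, 1.502 and 2.77, with SE 0.0549, 0.14, 0.189 and 0.45). Of all genes, 93.4%, 94.8%, 85.8% and 93.7% had a lower ratio in the 4 experiments. GINS3 was second, with ratios of 4.19, 4.41 and 4.44 in Kelly cells at 1 day, 3.28, 3.02 and 3.25 at 6 days, 3.28, 2.61 and 2.41 for NGP and 2.92 and 1.71 for the xenograft. GINS3 passed in the 3 culture experiments (log2 2.12, 1.67 and 1.46) and not in the xenograft (1.21, SE 0.986). POLD3, an accessory subunit of polymerase delta, followed, enriched at 1 day (log2 1.13) and in NGP cells (1.12), and 0.9991 in NGP cells without DMSO RIP replicate 2. MCM3 was enriched at 1 day (log2 1.27), while its partners MCM4, MCM5, MCM6 and MCM7 were depleted there, MCM5 turning positive with mitochondrial scaling.

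PRIM2, POLA1 and POLE2 had the lowest average fitted ratios, which rest on groups of RIP libraries with 0 counts. PRIM2 had 0 counts in all 3 Kelly 6 day DMSO RIP libraries against 5.36 CPM in the input, which is at least 60.8-fold lower when 3 counts over the group are taken as the floor. POLA1 and POLE2 had 0 counts in both vehicle RIP libraries of the xenograft against 11.9 and 7.86 CPM in the input, at least 90.4-fold and 59.9-fold lower on the same floor. These floors cover counting error only. With the 3 genes at these limits the medians of the 40 genes stayed the same, as values that remain below a median cannot move it. With those groups at their limits, the average log2 ratio over the 4 experiments was at most -2.97 for POLE2, -2.47 for POLA1 and -2.19 for PRIM2. MCM7 (-2.94) and TYMS (-2.87), which had no such group, lay between the limits of POLE2 and POLA1. In NGP cells PRIM2 was not low: its ratios were 0.897, 1.42 and 1.74. Patchy RIP counts were common in the shallower sets: 2 of the 40 genes had a DMSO RIP library at 0 counts in Kelly cells at 6 days and 6 in the xenograft, where RRM1, for example, ranged from 0 to 597 counts between the 2 vehicle libraries.

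Most replication genes have short coding exons, and FEN1 does not. The longest coding stretch within 1 exon was 203.5 bases at the median of the 40 genes and 300 bases for all genes, and it was under 300 bases in 34 of the 40. FEN1 was the one member with a single coding exon. Over all genes tested, RIP over input rose with this length from 150 bases onward: at 1 day in Kelly cells the median log2 ratio was -1.40 for 2317 genes with a longest stretch of 150 to 200 bases, -1.13 for 3367 genes at 200 to 300, 0.05 for 2209 genes at 300 to 500, 1.07 for 2354 genes at 500 to 1000 and 1.66 for 2114 genes at 1000 or more, each shifted upward with mitochondrial scaling. Within the same ranges the medians of the replication genes were -1.54 for 13 genes, -1.44 for 15 genes and -0.41 for 5 genes. In that experiment the 6 members under 150 bases had a median of -0.87, above the -1.40 of 991 genes. In NGP cells the members' medians were above those of all genes under 150 bases (-0.10 against -0.32), at 200 to 300 (0.17 against -0.30) and at 300 to 500 (0.28 against 0.05). They were below at 150 to 200 (-0.755 against -0.363). In Kelly cells at 6 days they were below at 150 to 200 (-2.29 against -1.74), 200 to 300 (-2.11 against -1.245) and 300 to 500 (-1.32 against 0.02). Under 150 bases they were above there (-1.79 against -1.95). In the xenograft they were below under 150 bases (-1.33 against -1.29) and at 200 to 300 (-1.49 against -0.93). They were above there at 150 to 200 (-1.16 against -1.26) and at 300 to 500 (0.04 against -0.07). The 873 genes with 1 coding exon had a median of 2.07 in Kelly cells at 1 day, and 69.6% of them lay below FEN1. GINS3, with a longest coding stretch of 234 bases, lay at 2.12, far above the all-gene median of its range.

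**Figure D4:**
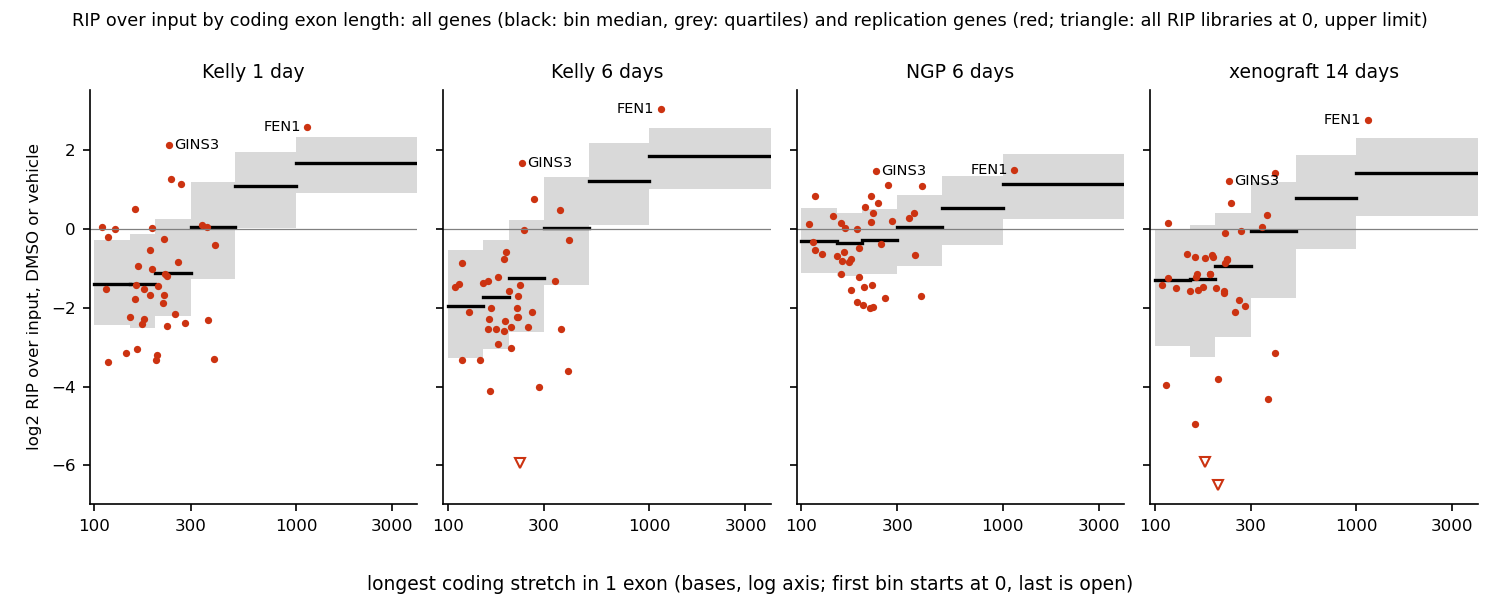
Log2 RIP over input in DMSO or vehicle libraries (y axis) against the longest coding stretch within 1 exon (x axis, bases, log axis) in the 4 experiments; black lines are all-gene medians per range, grey bands their quartiles, red points the 40 replication genes and triangles upper limits. All-gene medians rise from the range of 150 to 200 bases onward, 34 of the 40 genes lie below 300 bases, and GINS3 lies above the grey band of its range in all 4 panels; mitochondrial scaling shifts whole panels upward and so moves points across 0.

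Across the 40 genes the Spearman rank correlation of RIP over input with the longest coding stretch was 0.178, 0.17, 0.195 and 0.21 in the 4 experiments, against 0.553, 0.578, 0.358 and 0.429 over all genes. Without FEN1 it was 0.113, 0.105, 0.131 and 0.147 over the other 39 genes. The genes share the same libraries, and few of the 40 reach long stretches. For the longest exon of the transcript, coding or not, the correlation was 0.411, 0.377, 0.314 and 0.162 over the 40 genes. Over all genes it was 0.307, 0.301, 0.346 and 0.209. For the length of the last exon it was 0.397, 0.372, 0.311 and 0.17 over the 40 genes and 0.278, 0.269, 0.326 and 0.187 over all genes. The number of GGACT in the counted exons had correlations of 0.134, 0.302, 0.041 and 0.036 over the 40 genes and 0.091, 0.117, 0.013 and 0.058 over all genes. The GC content of the transcript stood out in NGP cells, at -0.644 over the 40 genes and -0.494 over all genes, against 0.031 and 0.06 in Kelly cells at 1 day and 0.214 and 0.102 at 6 days. Its part in the NGP ratios was not tested.

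RIP over input with DMSO differed between Kelly and NGP cells at 6 days for 24 of the 40 genes, in a comparison chosen after the ratios had been seen (edgeR interaction test), where 46.1% of 13684 genes differed, 22.2% higher and 23.9% lower in Kelly cells. FEN1 (1.71, SE 0.215) and TK1 (1.27, SE 0.232) were higher in Kelly cells and 22 were lower, and with mitochondrial scaling 20 of those 22 changed sign. The median difference was -1.41, against -0.08 for all genes, and 2.52 with mitochondrial scaling, which moved the all-gene median by 4.00. CDC45 differed by -3.35 (SE 0.307) and RFC4 by -3.49 (SE 0.505), and both changed sign with that scaling. The Spearman correlation of RIP over input with GC content across the 40 genes was 0.214 in Kelly and -0.644 in NGP cells, and its part in the difference was not tested. The file headers record Kelly and NGP libraries in separate folders, so the cell line and a difference between those folders cannot be told apart.

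With STM2457, RIP over input moved in both directions within the replication genes. In Kelly cells at 1 day 14 of the 40 genes changed (edgeR interaction test, adjusted p under 0.05), where 17.2% of 13669 genes did, 9.53% higher and 7.62% lower. RPA2, RFC4, LIG1, CDC6, POLD1 and MCM7, all low with DMSO, rose, and with mitochondrial scaling the RPA2 change was 1.27e-05 and the other 5 changed sign. GINS2, MCM3, MCM5, RFC2, GINS3, FEN1, TK1 and MCM10 fell; mitochondrial scaling lowers every change and so could not turn them. The MCM10 call was lost in 11 of 12 omissions of 1 library, all but STM2457 RIP replicate 1 (-0.49 to -0.35). Counting the other alternatives without mitochondrial scaling, among them DESeq2, it was lost in 15 of 16. The TK1 call was lost in 7 omissions, those of DMSO input replicates 1, 2 and 3, STM2457 input replicates 1 and 3, and DMSO RIP replicates 1 and 2 (-0.55 to -0.44). It was lost in 9 of the same 16 alternatives. The MCM7 call was lost without DMSO input replicate 1 or 3 or STM2457 input replicate 1 or 2 (0.61 to 0.65). The median change of the 40 genes was 0.0021, against -0.03 for all genes, and -1.45 and -1.46 with mitochondrial scaling, which moved the all-gene median by -1.44. At 6 days 1 of the 40 genes changed, RPA2, where 2.06% of 13324 genes did, 1.26% higher and 0.803% lower. In NGP cells edgeR called 0 of the 40 genes and 0% of all genes. Of the 40, 2 had an unadjusted p under 0.05 (ORC1 and RPA3), as did 764 of all genes. DESeq2 called 0 of the 40 and 2 of 16761 genes. In the xenograft edgeR called 0 of the 40 genes and 0% of all genes. Of the 40, 3 had an unadjusted p under 0.05 (TYMS, POLE2 and PRIM1), as did 809 of all genes. DESeq2 called 1 of the 40, PRIM1, and 224 of 15010 genes. The xenograft count by edgeR was 1 without STM2457 RIP replicate 2. Whether the change differed between experiments was not tested.

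Among the genes called at 1 day, GINS2 had the largest fall. Its ratio was 0.988, 0.847 and 1.18 with DMSO and 0.322, 0.388 and 0.323 with STM2457, without overlap, while its input rose slightly (log2 change of the ratio -1.54, SE 0.179, edgeR adjusted p = 9.1e-05; -2.99 with mitochondrial scaling). At 6 days it was 0.261, 0.222 and 0.209 with DMSO and 0.113, 0.137 and 0.105 with STM2457, again without overlap, but the change did not pass (-0.96, SE 0.245, edgeR adjusted p = 0.0667). In NGP cells the ratios overlapped, at 0.554, 0.640 and 0.720 with DMSO and 0.693, 0.608 and 0.547 with STM2457. MCM3 fell at 1 day from 2.30, 2.49 and 2.46 to 1.14, 1.14 and 0.891 (log2 change -1.20, SE 0.116, edgeR adjusted p = 2.51e-05). FEN1 fell from 6.02, 5.97 and 5.90 to 4.03, 3.82 and 4.38 (log2 change -0.55, SE 0.0733, edgeR adjusted p = 0.000272), without overlap. Its RIP level alone was 1439, 1428 and 1410 CPM with DMSO and 1447, 1371 and 1573 CPM with STM2457, with overlap, so the lower ratio at 1 day came with a higher input level and a RIP level that overlapped the controls. At 6 days FEN1 ratios were 7.21, 7.37 and 6.70 with STM2457 and did not pass (-0.21, SE 0.183). GINS3 fell at 1 day from 4.19, 4.41 and 4.44 to 2.64, 2.42 and 3.04 (log2 change -0.69, SE 0.128, edgeR adjusted p = 0.00286).

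Among the genes called, RPA2, the middle subunit of RPA, had the largest rise at both times. It was 0.0914, 0.0752 and 0.123 with DMSO and 0.229, 0.290 and 0.267 with STM2457 at 1 day (log2 change 1.44, SE 0.233, edgeR adjusted p = 0.00106; 1.27e-05 with mitochondrial scaling). At 6 days it was 0.136, 0.0641 and 0.0969 with DMSO and 0.338, 0.300 and 0.485 with STM2457 (log2 change 1.92, SE 0.403, edgeR adjusted p = 0.0343; -0.46 with mitochondrial scaling). Treated and control libraries did not overlap at either time, and every value stayed below 1, the level of the input. The 6 day call was lost without any 1 of the 6 input libraries (1.90 to 1.95) or DMSO RIP replicate 3 (1.65), and with a replicate block. The count of called genes at 6 days was 0 in each of those 6 input omissions, 3 without DMSO RIP replicate 1, and 11, 6 and 4 without STM2457 RIP replicate 1, 2 and 3. RFC4 behaved likewise at 1 day, with ratios of 0.121, 0.130 and 0.0857 and then 0.295, 0.222 and 0.294 (log2 change 1.27, SE 0.233, edgeR adjusted p = 0.00264; -0.17 with mitochondrial scaling), and its 6 day libraries overlapped. In NGP cells the RPA2 ratios were 0.502, 0.769 and 0.808 with DMSO and 0.752, 1.13 and 0.869 with STM2457, with overlap.

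**Figure D5:**
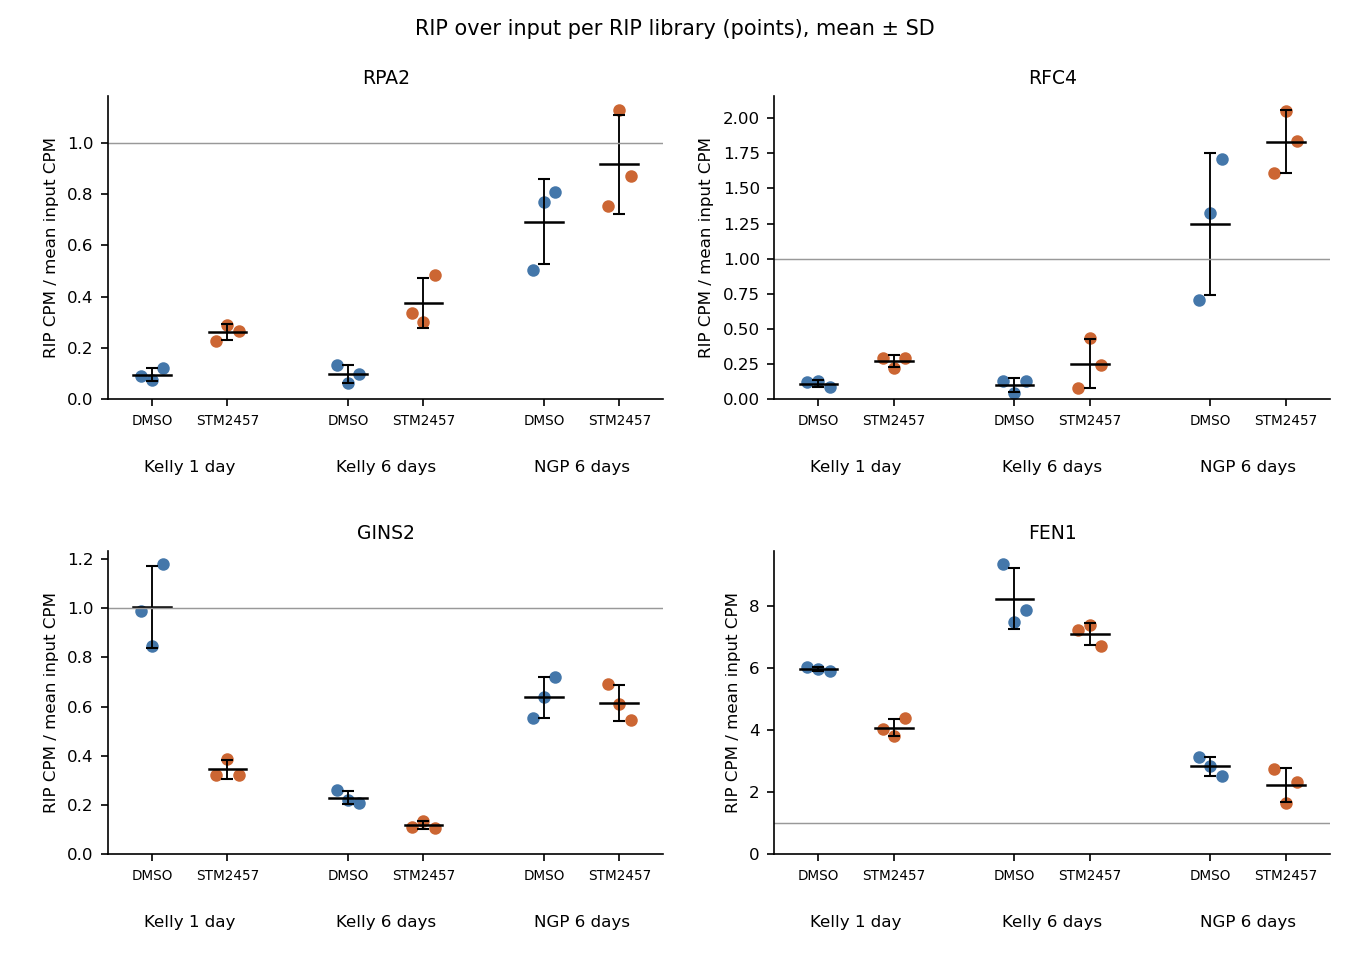
RIP level divided by mean input level (y axis, grey line at 1) of RPA2, RFC4, GINS2 and FEN1 in each RIP library (blue DMSO, orange STM2457; bars are mean ± SD) in the 3 culture experiments. At 1 day in Kelly cells RPA2 and RFC4 are higher and GINS2 and FEN1 lower with STM2457 without overlap; with mitochondrial scaling RPA2 is level and RFC4 lower.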

How the data were processed

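The deposited files hold raw fragment counts per gene for 44 libraries. Per the file headers the authors counted paired fragments over exons with featureCounts, grouped by gene name, with no strand or multi-overlap option; per the submitters' processing notes they used FastQC 0.11.5, Trimmomatic 0.36, HISAT2 2.1.0, Subread 1.5.3 and deepTools 2.0. Exons are GENCODE protein-coding models, per the file headers, on GRCh38, per the submitters' processing notes. For mouse reads of the xenograft, the labels and headers record no separate step. Spike-in RNA was not analysed here.

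Counts were tested in R 4.3.3 with edgeR 4.0.16 (filterByExpr, TMM factors, quasi-likelihood test) within each experiment. The filter used a minimum count of 10 and a minimum total of 15. Adjusted p-values are Benjamini-Hochberg over all genes tested, with a threshold of 0.05, and RIP over input also needed a log2 ratio of 1 in either direction. Changes of RIP over input and differences between experiments were interaction terms. CPM and FPKM were computed here with TMM-normalised library sizes. Tests were checked on simulated counts. Alternatives were RLE factors, no count filter, DESeq2 1.42.0, a replicate block, 1 fit of all 22 inputs, factors from 13 mitochondrial mRNAs and omission of each library.

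The members and gene lists were chosen with earlier results of these data known. Described in full were members called in at least 2 input comparisons, the largest rise and fall of each, the 3 highest and 3 lowest RIP over input, the largest changes of RIP over input and members whose input change differed, and from other lists up to 4 genes called in at least 2 culture experiments. Other members were named for completeness after their values were seen. Exon features of GENCODE 44 canonical transcripts, which matched 95.5% of gene names and all 40 members, and the comparison of RIP over input between Kelly and NGP cells were added after seeing the data.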

Additional observations from a re-analysis of the deposited data

Results flagged for a closer look

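In Kelly cells the input change with STM2457 differed between 6 days and 1 day for 4 of the 40 genes by the edgeR interaction test, where 8.41% of 13773 genes differed. The difference of log2 changes, 6 days minus 1 day, was -0.54 for RPA3 (SE 0.144), which fell at both times. It was 0.26 for MCM4 (SE 0.0705), with a change of -0.08 at 1 day and 0.16 at 6 days. It was 0.28 for LIG1 (SE 0.0788), with -0.16 and 0.10, and 0.24 for POLE (SE 0.0750), with -0.20 and 0.02. The calls were lost for MCM4 without 1 day STM2457 input replicate 1 (0.24) or replicate 2 (0.26), and for LIG1 without 1 day DMSO input replicate 1 (0.26) or 2 (0.25) or STM2457 input replicate 1 (0.28) or 2 (0.26). The POLE call was lost in the same 4 omissions as the LIG1 call, with values of 0.21 to 0.25. The RPA3 call was lost without 1 day STM2457 input replicate 2 or 3, 6 day DMSO input replicate 1 or 3, or 6 day STM2457 input replicate 2 or 3, with values of -0.52 to -0.40. Input libraries of the 1 day and 6 day experiments are recorded in separate folders, so time and folder cannot be told apart.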

How the results depend on the processing

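No planned or added alternative other than scaling on mitochondrial mRNAs reversed a called gene. With that scaling, the log2 ratio of RIP to input for Kelly at 1 day became GINS4 0.11, RFC5 0.22, POLE 0.50, CDT1 0.45, RPA1 0.61, MCM5 0.11 and POLA1 0.18, and at 6 days RPA2 1.59, RRM2 3.38, MCM6 2.76, MCM2 2.94, RFC4 1.80, RPA3 3.34, POLD2 2.50, RFC2 3.503, MCM7 1.37, MCM4 2.25, MCM10 3.61, RRM1 2.56, PRIM1 2.42, RFC5 2.102, POLE 3.28, RFC3 2.37, ORC6 3.05, GINS2 2.77, CDT1 3.26, RPA1 2.72, CDC6 0.88, TYMS 1.97, LIG1 2.17, POLD1 3.43, PCNA 3.10, CDC45 0.67 and MCM5 3.52. The change of RIP over input became RFC4 -0.17, MCM7 -0.80, CDC6 -0.41, LIG1 -0.34 and POLD1 -0.49 at 1 day and RPA2 -0.46 at 6 days, and the difference between Kelly and NGP cells became RPA2 1.46, MCM6 2.49, RFC4 0.85, RFC1 2.50, RPA3 2.47, MCM7 2.42, GINS4 3.17, MCM4 2.25, MCM10 2.66, RRM1 1.08, PRIM1 1.503, RFC3 1.71, ORC6 2.37, GINS2 2.70, RPA1 2.55, TYMS 2.77, LIG1 2.28, PCNA 2.33, CDC45 0.61 and POLA1 0.59. The cause was not tested. With the same scaling the medians of RIP over input became 0.1981, 2.995, 0.2092 and 0.978 in the 4 experiments (0 called in the xenograft), those of its change -1.452 (30 called), -2.183 (14 called), -0.1947 and -0.0395, and that of the Kelly and NGP difference 2.524.

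Deviations of same-numbered libraries correlated at -0.07 to 0.13, so no pairing by replicate number was seen in the counts. Low correlations cannot show that same-numbered libraries came from different RNA. With a replicate block 9 genes were called for input at 1 day, 1 in the xenograft (median -0.1936), 0 for the change at 6 days (median 0.05871; at 1 day -0.09111) and 1 for the difference between times, and the xenograft RIP median was -1.667. In 1 fit of all inputs the counts were 1, 2, 5 and 12 in the 4 experiments (xenograft median -0.1141). DESeq2 called 7 for the change at 6 days, 1 each for xenograft input, xenograft change and the Kelly and NGP input difference, and 11 for xenograft RIP, with medians of -2.193 (RIP, 6 days) and 0.08797 (change, 1 day). Over all genes it called 1011 of 16734, 125 of 14636, 224 of 15010, 423 of 17010 and 2396 of 15010 in that order. RLE factors gave 2 calls for the change at 6 days, and medians of -2.192 (RIP, 6 days) and 0.08886 (change, 1 day). Without the filter 1 xenograft input gene was called, and medians were 0.1397 (change, 1 day) and 0.1186 (difference between times). With GGAC in place of GGACT the correlations were -0.058, 0.131, -0.234 and -0.045.

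Leaving out 1 library, the called genes and medians ranged for input over 7 to 15 and -0.1298 to -0.09219 (Kelly 1 day), 4 to 7 and -0.04787 to -0.003036 (Kelly 6 days), 0 to 3 and -0.0152 to 0.06581 (NGP), and 0 to 2 and -0.2277 to -0.1042 (xenograft). For RIP over input they ranged over 27 to 29 and -1.478 to -1.349, 27 to 31 and -2.101 to -1.887, 13 to 16 and -0.6111 to -0.3071, and 0 to 8 and -2.02 to -0.98. For its change they ranged over 11 to 19 and -0.1148 to 0.162, 0 to 11 and -0.2249 to 0.3383, 0 to 0 and -0.01584 to 0.2045, and 0 to 1 and -0.4856 to 1.151. The difference between times ranged over 0 to 7 and 0.04062 to 0.1364, that of Kelly and NGP input over 0 to 1 and -0.09888 to -0.0346, and that of their RIP over input over 22 to 28 and -1.586 to -1.267. Low RIP counts limit the ratios in Kelly cells at 6 days and in the xenograft.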
